A study of Mus musculus with 8 samples.

Results

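The genes described are Pcna and 9 other genes of DNA replication and cell proliferation, measured in the adult brain of mice that had been exposed to ethanol before birth. They are Mcm2, Mcm3, Mcm4, Mcm5, Mcm6, Mcm7, Mki67, Top2a and Rrm2 beside Pcna, which makes 10 of the 19938 genes that had a probe set annotated with exactly 1 gene symbol. For each gene the probe set of that 1 symbol with the highest mean over the 8 arrays was taken. Of 14 probe sets that carried the symbol of one of these genes, 12 carried it alone. Pcna was chosen because its value differed between ethanol and saline after early exposure, so that difference is given as a description, with no test.

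RNA of whole brain from male C57BL/6J mice at postnatal day 70 was hybridized to Affymetrix Mouse Gene 1.0 ST arrays, with 4 groups of 2 arrays. In the early ethanol group, dams had received ethanol subcutaneously on gestational days 8 and 11, as 2 injections of 2.5 g/kg on each day, and in the early saline group they had received saline on the same days. In the late ethanol and late saline groups the same injections had been given on gestational days 14 and 16. The methods give, for the miRNA arrays of the same injection models, pools of RNA from 3 non-littermate males per array, and the same pooling is taken to hold here, so the spread between arrays is that between pools. No mouse received ethanol after birth, and no group was left uninjected.

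PCNA is the ring-shaped sliding clamp that holds DNA polymerases on their template, and it also serves DNA repair, in which cells that no longer divide take part. MCM2 to MCM7 form the hexameric helicase that is loaded on origins of replication, RRM2 is the S-phase subunit of the reductase that makes deoxynucleotides, topoisomerase II alpha untangles replicated DNA, and Ki-67, the product of Mki67, is used as a marker of cycling cells. In the adult mouse brain, dividing cells are few. Those that give rise to neurons lie mainly in the subventricular zone, from which neuroblasts migrate to the olfactory bulb, and in the hippocampal dentate gyrus. In whole tissue, fewer cells of a type and less RNA per cell cannot be told apart.

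All values are log2 expression levels, and 1.2-fold, the fold that the study used together with an unadjusted p under 0.05, is 0.26 on this scale. The median level of an array was 6.74 to 6.84 in the early groups and 7.21 to 7.30 in the late groups, so levels were compared only within a timing. The receptors of the nose and the vomeronasal organ are mostly silent in the brain, and the level that 95% of their 1210 probe sets did not exceed was taken as background, which gave 6.41 to 6.55 on the early arrays and 7.28 to 7.70 on the late ones. Of the tested probe sets, 58.0 to 59.2% lay above it on an early array and 48.5 to 53.8% on a late one. The markers of neurons, astrocytes and oligodendrocytes were all above background, as 8 of 8, 6 of 6 and 5 of 5 measured genes at each timing. After Benjamini-Hochberg adjustment in limma over 23410 probe sets, 0 probe sets passed an adjusted p of 0.05 for early or for late exposure, while 401 (1.71%) and 583 (2.49%) had an unadjusted p under 0.05.

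The gene Pcna lies at chr2:132249286-132253180 in GRCm38.p6, minus strand, and whether its chosen probe set (10461391) maps there was not tested. Pcna was the only one of the 10 genes whose level lay above background on all 8 arrays. It did so by 3.79 to 4.49 on the early and 3.57 to 4.13 on the late arrays. Its level was 10.47 and 10.27 on the early ethanol arrays and 10.89 and 10.80 on the early saline arrays. Both ethanol arrays lay below both saline arrays, and the gap between the nearest arrays was wider than the distance between the arrays of either group. The means were 10.37 ± 0.14 (SD, n = 2) with ethanol and 10.85 ± 0.06 (SD, n = 2) with saline, a difference of -0.48 (SE 0.10), or 71.9% of the saline level. With early ethanol replicate 1 left out the difference was -0.58, and with early ethanol replicate 2 left out it was -0.38.

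After late exposure the level of Pcna was 11.27 and 11.40 with ethanol and 11.37 and 11.30 with saline. The groups overlapped, and both means were 11.34, with SDs of 0.09 and 0.05. The difference of 0.00 had a 95% interval of -0.22 to 0.22 and a limma adjusted p of 1. The early difference minus the late one was -0.48 (SE 0.14), which includes the value on which Pcna was chosen and was not tested.

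A second probe set (10487930) carried the symbol Pcna alone and had been given the same 4 transcript accessions. It read 10.47 and 10.28 with early ethanol, 10.89 and 10.81 with early saline, 11.28 and 11.37 with late ethanol, and 11.36 and 11.29 with late saline. The 2 probe sets differed by 0.002 to 0.031 on any array, and their early and late differences were the same to 2 decimals. They are no independent measurements of one another. RefSeq also lists 2 pseudogenes of Pcna, Pcna-ps1 on chromosome X and Pcna-ps2 on chromosome 19. The number of the second probe set (10487930) falls between those of Tmem230 (10487927) and Prokr2 (10487937), neighbours of Pcna on chromosome 2. That of the chosen probe set (10461391) falls outside this run. So does that of the neighbour Cds2 (10476326), which is read in the opposite direction. Whether the probe sets tell the pseudogenes from Pcna was not tested, since probe sequences were not available.

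**Figure D1:**
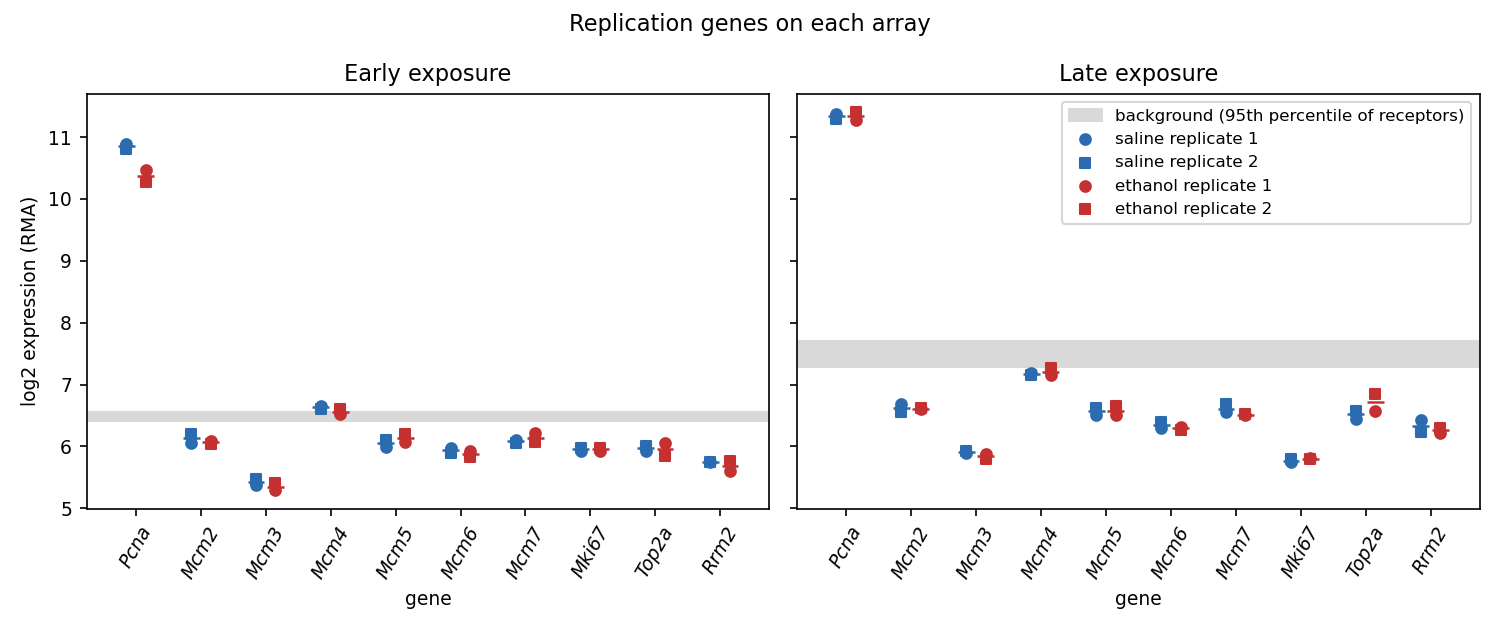
Log2 expression (vertical axis) of the 10 genes on each array, early exposure on the left and late exposure on the right, with saline in blue, ethanol in red, replicates 1 and 2 as circles and squares, and short lines at the group means. The grey band spans the background of the arrays of that timing. Pcna lies far above the band, with its early ethanol arrays (10.47, 10.27) under its early saline arrays (10.89, 10.80), and the other genes lie at or under the band except early Mcm4.

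The stretch between the transcription starts of Pcna and its neighbour Cds2, which is read in the opposite direction and encodes an enzyme of phospholipid synthesis, is shown because both genes begin from the same 157 bases (chr2:132253181-132253337, GRCm38.p6, RefSeq), here on the strand of Pcna from 5′ to 3′. In the line below, whose label does not give the order, the first base lies next to Cds2 and the last next to the start of Pcna. Capitals mark, from left to right, the letters GGGCGG of a GC box. They next mark a CCAAT box, which is written here as its reverse complement. The last capitals are the reverse complement of the motif TGACG.
Pcna to Cds2: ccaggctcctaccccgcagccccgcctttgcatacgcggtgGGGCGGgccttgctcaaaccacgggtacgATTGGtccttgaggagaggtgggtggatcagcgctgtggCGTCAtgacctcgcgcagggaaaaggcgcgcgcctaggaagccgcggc

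Cds2 (probe set 10476326) read 12.12 and 11.92 with early ethanol and 12.19 and 11.87 with early saline. Its early arrays overlapped, the difference was -0.01 (SE 0.13, 95% interval -0.31 to 0.28), and its late difference was -0.08. On the other side of Pcna, 226 bases from its end, lies Tmem230, a membrane protein gene, whose early difference was -0.01 (SE 0.10) and whose late difference was -0.12. The next genes outward were Slc23a2, a vitamin C transporter, at -0.05 (SE 0.10) early and 0.04 late, and Prokr2, a prokineticin receptor of the olfactory bulb, at -0.24 (SE 0.09) early and 0.07 late. Of these 4 neighbours Prokr2 alone had an early ethanol group entirely under the saline group, with levels of 6.74 and 6.93 against 7.08 and 7.08. Over all probe sets 18.9% did so. The early difference of Prokr2 minus its late one was -0.31, past the study's thresholds, as for 1.99% of all probe sets. Late, Tmem230 alone had an ethanol group entirely under saline, at 9.52 and 9.58 against 9.60 and 9.73, as for 15.7% of all probe sets.

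Of the 10 genes, 9 had a RefSeq window from 250 bases before to 50 bases after a start, 10 windows in all since Mcm7 had 2, and Mcm4 had none. An E2F motif (written as TTTGGCGC, or else TTTCGCGC, or else TTTCCCGC, or else TTTGCCGC, on either strand, with overlapping matches counted) was present in a window of 4 of the 9, namely Mcm3, Mcm5, Mcm6 and Mcm7, and in 2.26% of all 32851 windows. The window of Pcna held 0 matches to these letters. A CCAAT box (CCAAT, either strand) was present for 9 of the 9 and in 37.4% of all windows, a GC box (GGGCGG, either strand) for 8 and in 35.7%, and TGACG (either strand) for 4, Pcna among them, and in 20.8%.

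The MCM genes encode the helicase ring that is loaded on origins in G1 and travels with the fork. Mcm2, Mcm3, Mcm5, Mcm6 and Mcm7 did not lie above background on any array, so their values bound what could be seen rather than measure a change. Mcm4 lay above background on the 4 early arrays, by 0.05 to 0.24, and on none of the late arrays. When receptor probe sets that carry several symbols were added to the background, Mcm4 was above it on 1 of the 4 early arrays and Pcna on all 8 arrays. Mcm4 read 6.53 and 6.60 with early ethanol and 6.65 and 6.61 with early saline. Its groups did not overlap, with ethanol lower, and the difference was -0.07 (95% interval -0.25 to 0.12).

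Of the other helicase subunits, Mcm2 read 6.09 and 6.04 with early ethanol and 6.06 and 6.20 with early saline, a difference of -0.06 (95% interval -0.26 to 0.14). Mcm3 read 5.30 and 5.41 against 5.38 and 5.47, a difference of -0.07 (-0.26 to 0.12). Mcm5 read 6.07 and 6.20 against 5.99 and 6.11, a difference of 0.09 (-0.13 to 0.31). In each of these genes the ethanol and saline arrays overlapped. The early differences of Mcm6 and Mcm7 were -0.06 (-0.26 to 0.13) and 0.06 (-0.14 to 0.26), also with overlapping arrays.

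After late exposure the difference was 0.00 for Mcm2, -0.07 for Mcm3, 0.04 for Mcm4, 0.01 for Mcm5, -0.06 for Mcm6 and -0.10 for Mcm7. Mcm7 read 6.51 and 6.52 with late ethanol and 6.55 and 6.68 with late saline, and Mcm3 read 5.88 and 5.80 against 5.90 and 5.92. These were the pair of helicase genes whose late groups did not overlap, both with ethanol lower, as for 15.7% of all probe sets. Their intervals were -0.30 to 0.10 and -0.26 to 0.12. Both genes were under background on every array.

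Mki67, Top2a and Rrm2, which are transcribed mainly in cycling cells, were under background on all 8 arrays. Mki67 read 5.92 and 5.97 with early ethanol and 5.93 and 5.97 with early saline, and 5.82 and 5.79 with late ethanol and 5.75 and 5.79 with late saline. Its early difference of -0.01 (95% interval -0.18 to 0.16) and late difference of 0.03 (-0.14 to 0.20) were within the spread of the arrays. Rrm2 read 5.60 and 5.77 against 5.74 and 5.75 after early exposure and 6.22 and 6.29 against 6.42 and 6.23 after late exposure, with differences of -0.06 and -0.07.

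Top2a read 6.06 and 5.84 with early ethanol and 5.93 and 6.00 with early saline, a difference of -0.02 (95% interval -0.28 to 0.25). With late ethanol it read 6.58 and 6.84 and with late saline 6.45 and 6.58, the largest late difference of the 10 genes at 0.19 (SE 0.12, 95% interval -0.07 to 0.46, limma adjusted p of 1). The late ethanol arrays lay above the late saline arrays only in the third decimal. Without late ethanol replicate 1 the difference was 0.32 and passed the study's thresholds, in a fit that takes the spread of the 1 remaining late ethanol array from the other groups. The other Top2a probe set of 1 symbol (10390707) differed by -0.01 early and -0.02 late, and 2 probe sets shared by Top2a and Hibadh by -0.12 and -0.17 early and -0.11 and -0.24 late, so the probe sets that name Top2a did not share the late direction of the chosen one.

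**Figure D2:**
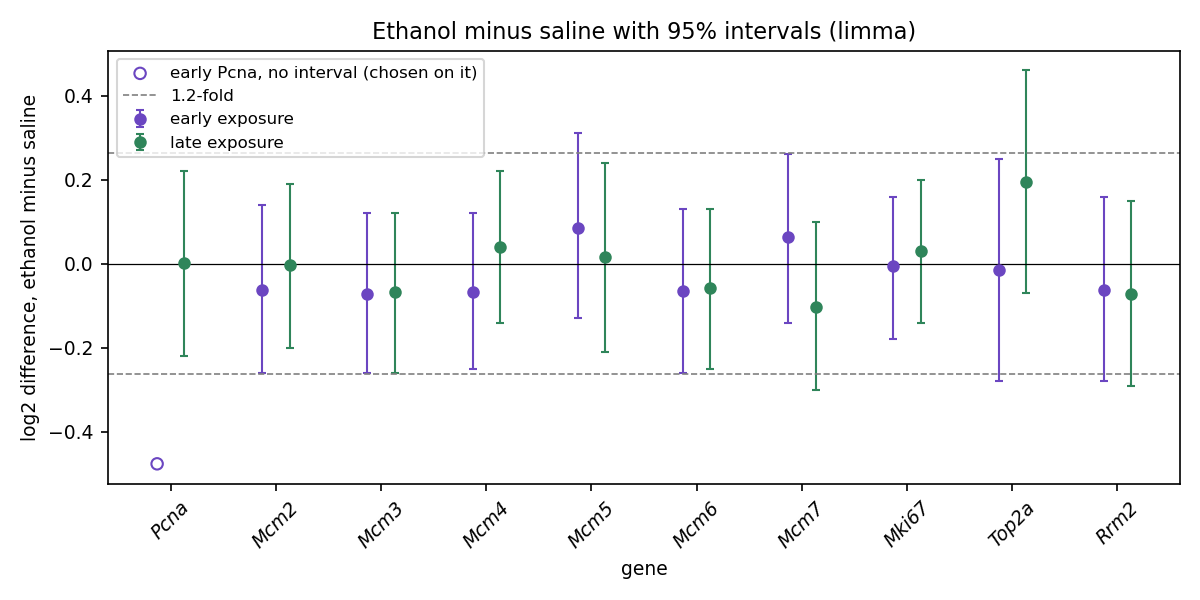
Log2 difference of ethanol minus saline (vertical axis) for each gene after early (purple) and late (green) exposure, with 95% intervals from limma and dashed lines at 1.2-fold. The open circle is early Pcna at -0.48, drawn without an interval because Pcna was chosen on that value, and each of the intervals shown spans 0.

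Over the 10 genes, 8 were lower and 2 higher with early ethanol, with a median difference of -0.06, and leaving out Pcna gave 7 lower, 2 higher and the same median. Over all tested probe sets 59.8% were lower, with a median of -0.02. At the study's thresholds 1 of the 10 genes was past for early exposure, Pcna, where 0.923% of all probe sets were past (0.645% lower, or 151 of 216, and 139 of 170 with quantile normalization over all arrays), and nothing is read from this count since Pcna was chosen on it. For late exposure 0 of the 10 were past, with 1.16% of all probe sets past (0.722% lower and 0.44% higher). For the early difference minus the late one 1 of the 10 was past, with 1.99% of all probe sets past (270 of 465 lower, and 326 of 470 with quantile normalization). It was Pcna again, whose early value enters this difference, so nothing is read from that count either. Ethanol and saline arrays did not overlap for 2 of the 10 genes early, Pcna and Mcm4, both with ethanol lower, against 18.9% of all probe sets in that direction, and for 0 with ethanol higher, against 7.5%. Late, 2 of the 10 did not overlap with ethanol lower and 1 with ethanol higher, against 15.7% and 12.7% of all probe sets, and 5 genes were lower and 5 higher, where 52.7% of all probe sets were lower. For 0 of the 10 genes were the groups apart at both timings in opposite directions, against 3.84% of all probe sets.

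The other genes of replication were read in 12 lists of 146 genes. Of these, 140 were measured by a probe set that names them alone, and 75 of the 140 lay above background on average over the early arrays and 65 over the late arrays. At the study's thresholds 0 of the 140 were past for early and 0 for late exposure, against 0.923% and 1.16% of all probe sets, and the limma adjusted p of every one was 1 at both timings. With early ethanol 98 were lower and 42 higher, with a median of -0.045, and with late ethanol 69 were lower and 71 higher, with a median of 0.00071. The groups did not overlap for 39 genes with early ethanol lower and 9 with early ethanol higher, against 18.9% and 7.5% of all probe sets. After late exposure they did not overlap for 22 and 19 genes, against 15.7% and 12.7%. For the early difference minus the late one, 3 of the 140 were past the study's thresholds, against 1.99% of all probe sets, namely Fen1 at -0.26, Ccnd3 at 0.38 and Ccne2 at -0.36, each with a limma adjusted p of 1.

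Among the origin genes, which mark and license replication origins, 11 of 13 were lower and 2 higher with early ethanol, with a median of -0.05, and 0 passed the study's thresholds. Orc5, a subunit of the origin recognition complex, read 8.46 and 8.53 with early ethanol and 8.70 and 8.71 with early saline, a difference of -0.22 (SE 0.09) whose limma unadjusted p was 0.037. Its groups did not overlap early, and they did late, at -0.09. Mcmbp, which binds MCM proteins, differed by -0.11 early and Cdc6, a loading factor for the helicase that was under background, by -0.15. The early values of Cdt1, another loading factor, and Dbf4, which activates the kinase CDC7, were -0.03 and -0.05, and their late values were -0.12 and -0.14, while Orc2 differed by -0.10 late.

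The clamp loaders place the PCNA ring on DNA or remove it. Of 9 such genes 8 were lower and 1 higher with early ethanol, with a median of -0.08, and late 3 were lower and 6 higher, with a median of 0.05. Rfc1, the large subunit of the loader, read 7.82 and 7.97 with early ethanol and 7.98 and 8.00 with early saline, a difference of -0.09. Rfc2 read 7.15 and 7.02 against 6.97 and 6.95, a difference of 0.13, so these loader subunits, which act in 1 complex, differed in sign, and both were within 1.2-fold. Dscc1, of an alternative loader, differed by -0.13 early at background level, and Chtf8 and Rfc3 by -0.17 and 0.13 late.

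The polymerases and primases that PCNA serves had 8 of 12 genes lower early, with a median of -0.03, and 9 of 12 lower late, with a median of -0.05. Pold1, the catalytic subunit of polymerase delta, differed by -0.20 (SE 0.12) early, where its arrays overlapped, and by 0.19 late, where it was under background. Pold3, an accessory subunit of the same enzyme, read 9.75 and 9.78 with late ethanol and 9.93 and 9.96 with late saline, without overlap, a difference of -0.18 (SE 0.08), and differed by -0.01 early. Prim2, of the primase, differed by 0.13 early and -0.20 late, and Pole4 by -0.11 early.

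Proteins that bind PCNA at the fork include the flap nuclease FEN1, DNA ligase I and the histone chaperone CAF-1, and 6 of 10 measured genes were lower early, with a median of -0.04. Lig1 read 6.93 and 6.88 with early ethanol and 7.0 and 7.10 with early saline, a difference of -0.14 (SE 0.08) without overlap, and -0.09 late. Rnaseh2a, of a nuclease that removes ribonucleotides, differed by -0.15 early. Fen1, under background on all 8 arrays, differed by -0.06 early and 0.20 late, and its late unadjusted p in limma was 0.028. Among the fork helicase and checkpoint genes 8 of 14 were lower early and 5 of 14 late. Topbp1, a checkpoint activator, read 7.96 and 8.03 with late ethanol and 8.23 and 8.21 with late saline, a difference of -0.23 (SE 0.08) with an unadjusted p of 0.025 in limma. Tipin, which steadies stalled forks, differed by -0.16 early and 0.17 late, Wdhd1 by -0.12 early, Clspn by -0.09 early and Recql4 by 0.16 late.

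PCNA also acts in mismatch repair, in excision repair, which also runs in cells that do not divide, and in the bypass of damaged bases. Of 14 measured genes of this kind, 11 lay above background early, 8 were lower and 6 higher with early ethanol, with a median of -0.08, and none was past 1.2-fold. Usp1, which removes ubiquitin from PCNA, differed by -0.16 (SE 0.14), Hltf, a ligase that lengthens the ubiquitin chain on PCNA, by -0.15 (SE 0.11) and Ercc5, an excision nuclease, by -0.13 (SE 0.10), with late values of -0.01, 0.00 and 0.05. The largest late value was that of Ung, which removes uracil from DNA, at 0.14, under background. Exo1 and Msh6 differed by 0.12 and 0.07 late.

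Among genes of deoxynucleotide supply, 7 of 8 were lower early, with a median of -0.06. Dck, the salvage kinase for deoxycytidine, read 6.72 and 6.74 with early ethanol and 7.0 and 6.88 with early saline, a difference of -0.20 (SE 0.09) and, in limma, an unadjusted p of 0.05 after rounding. Rrm2b, which takes the place of Rrm2 in cells that do not divide, read 7.42 and 7.50 against 7.55 and 7.65 early and 7.84 and 7.82 against 7.97 and 8.01 late. Its ethanol arrays lay under its saline arrays at both timings, by -0.14 and -0.16, and its unadjusted p in limma was 0.12 and 0.08. Dut differed by -0.06 early, and Dtymk and Samhd1 by -0.07 and -0.08 late. The topoisomerases other than Top2a differed by -0.12 to 0.15 early, with Top1 at -0.12 and Top3b at 0.15, and by -0.13 to 0.06 late.

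The cell cycle genes gave no call for early or for late exposure either. On the early minus the late difference, Ccnd3 and Ccne2 were past the study's thresholds, as given above. Of 23 measured genes of mitosis and proliferation, 2 lay above background early and 1 late, and their median differences were -0.01 and 0.04. The lowest early value was -0.17 for Kif11, a spindle motor, Plk1 differed by -0.10, and the late values of Birc5 and Anln were 0.10 and -0.11. Of 20 genes that control the step from G1 to S, 14 were lower early and 13 late. Cdkn1b, an inhibitor of cyclin-dependent kinases, read 9.72 and 9.83 with late ethanol and 9.98 and 10.00 with late saline, a difference of -0.21 (SE 0.09) with an unadjusted p of 0.042 in limma, and differed by 0.04 early. Ccnd3, a D-type cyclin, differed by -0.26 (SE 0.12) late and 0.12 early, and Ccne2, an E-type cyclin, by 0.20 late and -0.16 early, with unadjusted p of 0.052 and 0.081 late in limma. E2f2 and E2f3 differed by 0.13 and 0.15 early. Of 10 measured targets of p53, 9 were lower early, with a median of -0.11, and 6 late, against 59.8% and 52.7% of all probe sets. Cdkn1a and Bax of this list had no probe set that names them alone. Pcna itself is known as a target of p53, and a part of p53 in its difference was not tested. Trp53inp1 differed by -0.27 (SE 0.13) and Gadd45a by -0.19 (SE 0.09) early, with unadjusted p of 0.079 and 0.065 in limma, and Mdm2 and Ddb2 by -0.18 and -0.20 late.

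**Figure D3:**
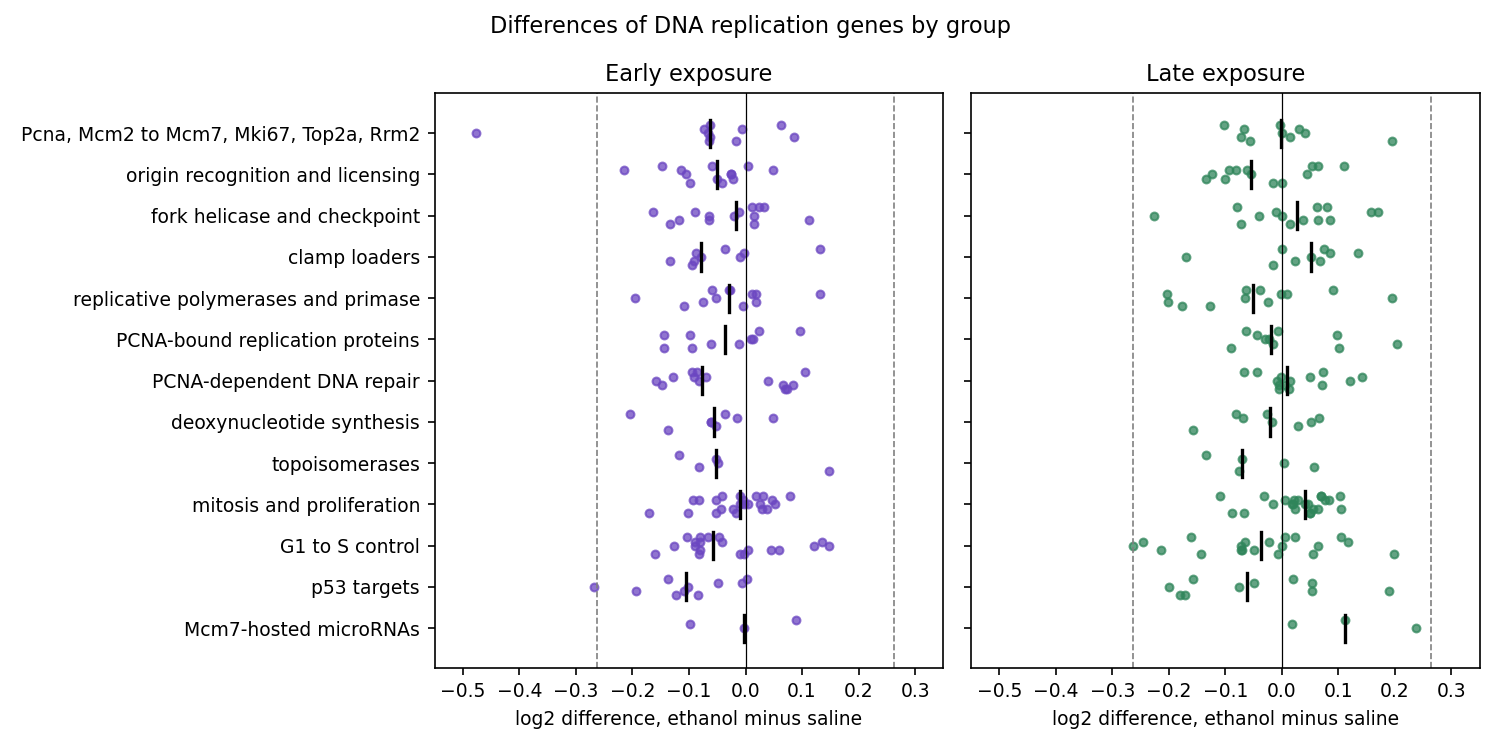
Log2 difference of ethanol minus saline (horizontal axis) for each measured gene of the 13 groups named on the vertical axis, after early exposure on the left and late exposure on the right. Short black lines are medians and dashed lines 1.2-fold. Pcna at -0.48 in the early panel stands apart from the other points, and Trp53inp1 at -0.27 early is the nearest.

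Mcm7 (chr5:138164583-138172111, GRCm38.p6) hosts 3 miRNAs in its introns, whose precursors have probe sets of their own. Their main mature sequences, from RefSeq, are shown because a change of the host transcript could appear in them as well, with the seed (bases 2 to 8) in capitals. miR-106b-5p and miR-93-5p share a seed, and miR-25-3p has another.
miR-106b-5p: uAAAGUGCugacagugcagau
miR-93-5p: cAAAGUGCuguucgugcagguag
miR-25-3p: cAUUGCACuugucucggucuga

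The probe sets of these genes were under background on all 8 arrays and read precursor rather than mature RNA. Mir106b differed by 0.09 early and 0.11 late, Mir93 by 0.00 and 0.24, and Mir25 by -0.10 and 0.02. Mir93 read 7.04 and 6.86 with late ethanol and 6.82 and 6.61 with late saline, with a difference (SE 0.11) whose unadjusted p was 0.066 in limma, while its host Mcm7 differed by -0.10 at that timing.

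The genes most like Pcna were found among 9909 genes by the root mean square difference of their log2 values, after subtraction of the mean of each timing, over the 8 arrays. They were Egln3, an oxygen-sensing prolyl hydroxylase, and Sdf2 at 0.061 each, Tmem42 at 0.062, and Fbxo30, of a ubiquitin ligase, and Supt3, a transcription cofactor, at 0.076 each. The second Pcna probe set stood at 0.011, the median gene at 0.18, and a flat line at 0.18. Their early differences were -0.37, -0.39, -0.49, -0.36 and -0.28 in that order, and their late differences were 0.02, 0.07, 0.07, -0.02 and -0.02. The search used the arrays on which Pcna was chosen, and none of the 5 belongs to the lists of replication genes.

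**Figure D4:**
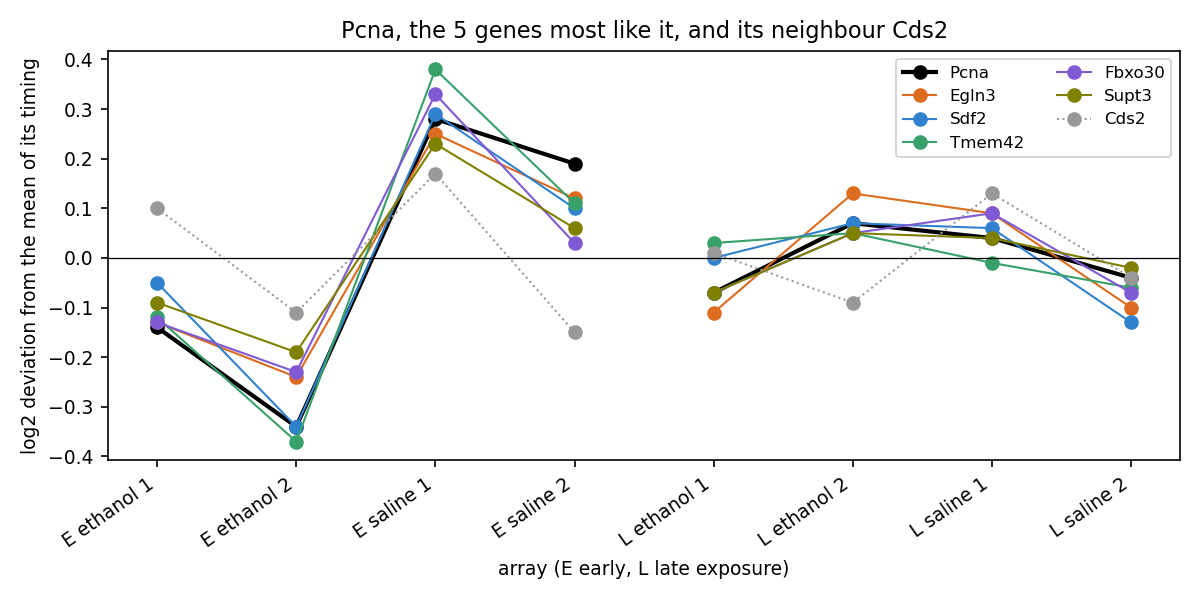
Log2 deviation from the mean of its timing (vertical axis) on each array (horizontal axis) for Pcna (black), the 5 genes most like it, and Cds2 (grey, dotted). The 6 solid lines lie below 0 on both early ethanol arrays and above 0 on both early saline arrays, and Cds2 does not separate the groups.

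Marker genes of some other cell types were also lower on the early ethanol arrays. Of the 14 genes of the olfactory bulb list, 14 were lower with early ethanol, 8 past the study's thresholds, with a median of -0.40, and 11 had groups that did not overlap, against 59.8% of all probe sets lower, 0.645% past and lower, and 18.9% without overlap. Gng4 and Syt10 had been put in the list with earlier results of these data known. Without them 12 of 12 were lower, 6 past, with a median of -0.32, and 9 did not overlap. The marker lists as a whole were also chosen with earlier results known, so their counts here and below are a description, with or without these genes. The mean level of the list was 7.68 and 7.81 with early ethanol and 8.10 and 8.13 with early saline, and 8.31 to 8.42 and 8.39 to 8.48 after late exposure. After late exposure 10 of the 14 were lower, against 52.7% of all probe sets, with a median of -0.02. Late, 1 was past the study's thresholds, Eomes at -0.36, against 0.722% past and lower. In 4 the late groups did not overlap with ethanol lower, against 15.7%. Early, Th, the enzyme of dopamine synthesis, differed by -0.53, and Gng4 and Syt10 by -0.43 and -0.54. Within the early ethanol group the order differed, since Pcna was lower on replicate 2 (-0.34 from the early mean, against -0.14) and the bulb list lower on replicate 1 (-0.25, against -0.12). The part of bulb content in the Pcna difference was not tested.

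Neural precursors and neuroblasts are among the dividing and newly born cells of the adult brain. Their markers had 12 of 14 genes lower with early ethanol, with a median of -0.07 and 11 above background. The genes past the study's thresholds were Dlx2 at -0.51, Dlx1 at -0.53 and Dcx, a microtubule protein of migrating neuroblasts, at -0.35. Dlx2 and Dlx1 belong to the bulb list as well. Over all probe sets 59.8% were lower early, and 0.645% were past the thresholds and lower. The mean level of the list was 7.88 and 7.90 against 8.05 and 8.02 early, and 8.40 and 8.49 against 8.51 and 8.39 late. After late exposure 9 of the 14 were lower, against 52.7% of all probe sets. Late, 1 was past the study's thresholds, Igfbpl1, which was higher at 0.27, against 0.44% past and higher. Of 12 genes of nasal tissue, 6 were lower and 6 higher early, with a median of -0.01. Early, 2 were past the study's thresholds lower and 3 higher, against 0.645% and 0.278% of all probe sets. Bpifb9b, a secreted protein of nasal glands, read 11.75 and 9.33 with early ethanol and 7.09 and 6.43 with early saline. Omp and Stoml3 of olfactory sensory neurons differed by -0.66 and -1.59 early. After late exposure 8 of the 12 nasal genes were lower, against 52.7% of all probe sets. Late, 1 was past the thresholds, Gng13 at -0.32, against 0.722% past and lower, and Stoml3 differed by -0.61. The 6 endothelial markers were lower early, with a median of -0.15, and the 5 oligodendrocyte markers higher, with a median of 0.15, none of them past the study's thresholds. The late medians of these lists were -0.10 and -0.12, again with none past. The part of these cells in the Pcna difference was not tested.

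**Figure D5:**
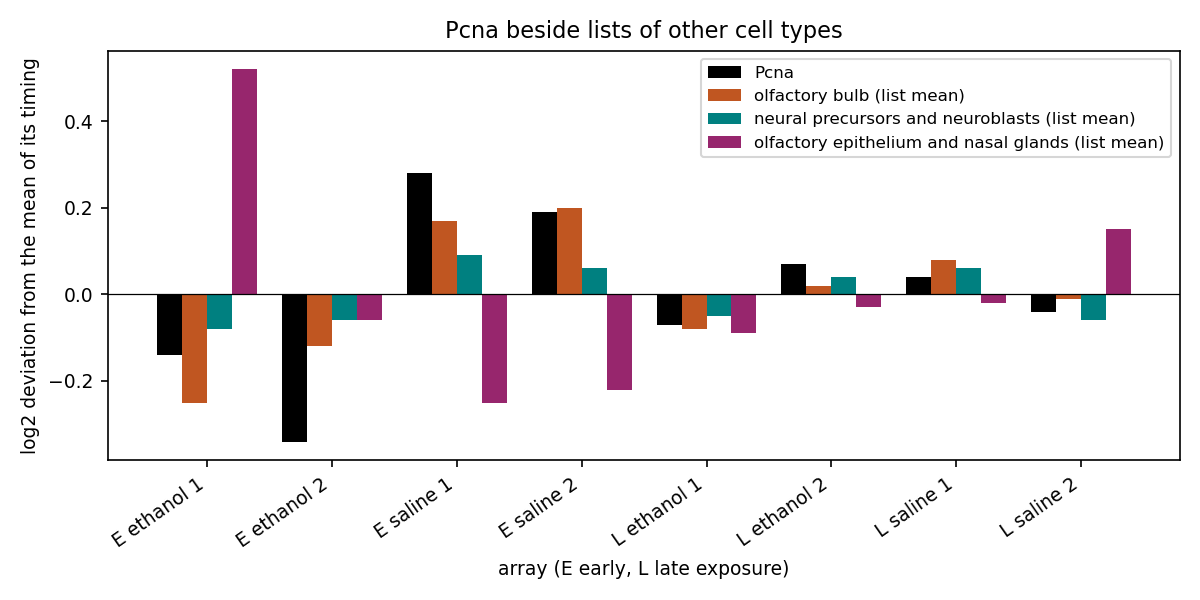
Log2 deviation from the mean of its timing (vertical axis) on each array (horizontal axis) for Pcna and for the mean of 3 marker lists. On the early ethanol arrays Pcna (-0.14, -0.34), the bulb list (-0.25, -0.12) and the precursor list (-0.08, -0.06) lie below 0, and the nasal list is at 0.52 on early ethanol replicate 1.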

How the data were processed

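The values are log2 probe set summaries as deposited. Per the methods, the authors scanned the arrays in Affymetrix Command Console and used Partek Genomics Suite for RMA summaries with quantile normalization, a GC adjustment and the log2 step, for which the submitters' notes name version 6.6 and the methods a lower one. This is stated for the early arrays, and the processing of the late arrays is not given in the sources used here. Their medians differ from those of the early arrays, so the timings appear to have been normalized apart. The genome build behind the probe sets is not given there either. Genes were named from the platform annotation, and positions and sequences come from RefSeq (GRCm38.p6). Groups were taken from sample titles.

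Of 35556 probe sets, 12146 without a symbol were dropped and 23410 tested (21789 with 1 symbol, 1621 with several). No pair of arrays held identical values. A mean for each of 4 groups was fitted over 8 arrays with limma 3.58.1 (R 4.3.3), with moderated variances on 8.3 degrees of freedom and Benjamini-Hochberg adjustment over 23410 probe sets. A second call rule was that of the study, an unadjusted p under 0.05 and 1.2-fold. With 2 arrays per group, the number of arrays limits the precision. Nothing says that the pools of a group are independent beyond their titles, so p-values measure the spread between these arrays.

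The 10 genes, the gene lists and the comparisons were chosen with earlier results of these data known. The olfactory bulb list holds genes added for that reason (Gng4, Syt10). The text names the 10 genes, up to 3 genes per replication list with the smallest unadjusted p at each timing, the 5 genes most like Pcna, 2 neighbours on either side of it, the miRNAs of Mcm7, and marker genes by the same rule of 3 beside results they move with. Of the genes in the replication lists, 6 are not analysed here. The marker lists that were measured but are not described, of oligodendrocyte precursors, microglia, choroid plexus, cerebellar granule cells and blood, had median early differences of -0.01, -0.01, -0.01, 0.03 and -0.04, and 0 genes past the study's thresholds early. Their late medians were -0.05, -0.02, -0.09, -0.28 and 0.06, with 1 choroid plexus gene and 2 cerebellar granule cell genes past. The lists of neurons and astrocytes had medians of 0.04 and -0.02 early and -0.03 and -0.08 late. Alternatives were an unmoderated test, a fit within a timing, a replicate block, other scalings, filters, annotation sets and weights, and leaving out each array. Figures were drawn with matplotlib 3.10.9.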

Additional observations from a re-analysis of the deposited data

Results flagged for a closer look

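Of the 10 genes and the named genes of the replication lists, 66 in all, 6 had ethanol and saline arrays that did not overlap at either timing and lay in opposite directions. Over all tested probe sets 3.84% did so. The list genes among the 66 had been picked for their small p at 1 of the timings, so the count is not comparable with that share and nothing is read from it. The test of the early difference minus the late difference in limma gave an adjusted p of 1 for each of the 6, and Fen1 alone of them passed the study's thresholds on it, with an unadjusted p of 0.04. The early difference minus the late one was -0.26 for Fen1 (-0.06 early, 0.20 late), the flap nuclease, which was under background on every array. It was -0.20 for Chaf1b, a subunit of the histone chaperone CAF-1 that was also under background, -0.18 for Wdhd1, a fork protein, and -0.17 for Aurka, a mitotic kinase at background on 7 of 8 arrays. It was -0.14 for Top3a, which lay above background on 3 of the 4 early arrays and 0 of the 4 late arrays. In the other direction, it was 0.22 for Top3b (0.15 early, -0.07 late), whose levels lay above background on all 8 arrays. Chaf1b separated its early groups by less than the second decimal. Groups of 2 arrays were too small to look, gene by gene, for a single outlying array. Of the late arrays, late ethanol replicate 1 had the highest background, 7.70 against 7.28 to 7.50. It also had the lowest share of probe sets above background, 48.5% against 51.1 to 53.8%.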

How the results depend on the processing

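The early difference of Pcna was -0.50 to -0.48 under every alternative that kept all arrays and -0.58 to -0.38 when 1 array was left out, and this range is a description, since Pcna was chosen on it. Of the other 9 genes, 0 were past the study's thresholds for early exposure in any of these fits. A fit without 1 array takes the spread of the lone array left in its group from the other groups. The late difference of Pcna, 0.00, was -0.021 with arrays centred on the median, -0.066 without late ethanol replicate 2, and between -0.066 and 0.067 over the fits that left out 1 array. The median early difference of the 10 genes was -0.48 with the lowest 50% of probe sets removed, where Pcna alone was left, and -0.062 to -0.0088 with 1 array left out. With late ethanol replicate 1 left out, 1 of the 10 genes (Top2a, 0.32) was past the thresholds for late exposure, so this count ran from 0 to 1. The count of replication list genes past the thresholds ran from 0 to 3 early and from 0 to 5 late with 1 array left out. The early highs of 3 came without early ethanol replicate 2 and without early saline replicate 2, and the late high of 5 (Prim1, Prim2, Cdkn1b, Ddb2 and Mir93) without late ethanol replicate 2. Counts over all probe sets moved more, and the number of probe sets tested was not the same in each fit. It was 23410 in the main fit, 35556 with every probe set and 11705 with the lowest 50% removed. The counts of those fits are therefore not comparable as counts. The lows of 206 early and 239 late at an unadjusted p under 0.05, given below, were also out of 11705. At the study's thresholds there were 216 early, 272 late and 465 for the early minus the late difference, against 60 and 58 with the unmoderated test on the arrays of a timing, 669, 674 and 854 with every probe set, 169 late and 213 for the early minus the late difference with the lowest 50% removed, and, with 1 array left out, 210 to 781, 242 to 1750 and 233 to 1284. At an unadjusted p under 0.05 alone, the 401 early and 583 late probe sets became 206 to 961 and 239 to 1106 with all arrays kept, and 403 to 900 and 306 to 2071 with 1 left out. After adjustment there were 0, except that leaving out early ethanol replicate 2 gave 13 early and 5 for the early minus the late difference.

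Same-numbered arrays of ethanol and saline deviated together in the early groups (correlation 0.47 over probe sets) and apart in the late ones (-0.46), so the numbers were not taken to pair the arrays. With the replicate number as a block, the counts at the study's thresholds were 229, 354 and 582, and 0 of the 9 genes other than Pcna were past at either timing. A block with the late numbers crossed, chosen after seeing the data, gave 564, 519 and 1099 probe sets and again 0 of the 9 genes at either timing. Of 2691 single gene values under 21 alternatives, 44 moved by more than the SD between arrays. This count is no measure of how stable the values were, since many of the alternatives could not add to it. In groups this small, leaving out an array cannot move the group mean by more than that SD. The unmoderated test, the fit within a timing and the replicate blocks change the test and leave the difference as it was. Signal is a limit as well as the number of arrays, since 8 of the 10 genes lay under background on every array.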
